A study of Homo sapiens with 8 samples.

Results

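The genes described here belong to amino acid transporter families of the solute carrier (SLC) superfamily, measured in 92.1 cells, an established human uveal melanoma line. They are all rows of the deposited table whose symbol falls in the SLC1A, SLC3A, SLC6A, SLC7A, SLC36A, SLC38A or SLC43A family, which gave 51 of 18406 genes. Of these, 47 symbols name carriers or carrier subunits, 3 are pseudogenes (SLC6A10P, SLC7A5P1 and SLC7A5P2), and 1, SLC7A6OS, is a neighbour of a carrier gene that shares its symbol. Some of the carriers move other substrates, among them SLC43A3 (nucleobases), SLC6A8 (creatine) and 2 monoamine carriers of the SLC6 family. All these rows are in the counts and sums where their values allow. Cells had been kept for 24 h with 10 nM trametinib, which inhibits the kinases MEK1 and MEK2, with 10 nM panobinostat, which inhibits histone deacetylases, with both drugs (the combination), or with vehicle (DMSO). Each group had 2 libraries of total RNA, 8 in all, and all came from this 1 line at 1 time point. The label of the combination states 10 nM without saying whether it holds for each drug. The comparisons of the combination with the single drugs assume that it does. The label of the panobinostat libraries also calls the drug a MEK inhibitor, and the drug name was followed.

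Amino acid carriers differ in what they move and in what drives them. Light chains of the SLC7 family, such as SLC7A5 (LAT1), reach the plasma membrane bound to a heavy chain of the SLC3 family and exchange one amino acid for another. SLC1A5, SLC38A1 and SLC38A2 take up small neutral amino acids such as glutamine with sodium, SLC7A1 and SLC7A2 take up arginine and lysine, and SLC7A11 brings in cystine in exchange for glutamate for the synthesis of glutathione. The transcription factor ATF4 raises the transcription of several carrier genes when amino acids run short, and carriers of the lysosome, such as SLC38A9, report amino acids to the growth kinase complex mTORC1.

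The recovered reads came to 10342369 and 10528784 per library with trametinib, 10005164 and 10169082 with panobinostat, 9017593 and 6897784 in the combination, and 16861001 and 12808244 in vehicle. Trametinib replicate 2 stood apart, with 5362 genes at 0 against 3743 in trametinib replicate 1 and 2222 to 2890 in the other 6 libraries. The trametinib replicates correlated at r = 0.897 over the 13320 tested genes on the log2(value + 1) scale, a description across genes, against 0.974 to 0.991 in the other groups. Over the 51 members, r between replicates was 0.951 with trametinib, 0.983 with panobinostat, 0.989 in the combination and 0.992 in vehicle. Of the melanocyte lineage markers, 8 of 9 were in the table, and their summed value ran from 167229 to 175142 with trametinib, from 99950 to 103748 with panobinostat, from 137491 to 138966 in the combination and from 103559 to 111479 in vehicle. S100B, 1 of these markers, read at most 12.2 in a library and 0 in both trametinib libraries. The endothelial markers summed to at most 4.08 in a library, with CDH5 at 0 in all 8. The fibroblast markers summed to 761 to 1020 with trametinib, 969 to 1000 with panobinostat, 1218 to 1276 in the combination and 391 to 410 in vehicle. COL1A1 and LUM gave nearly all of this sum. The group means of COL1A2, DCN and PDGFRB were at most 15.1, 3.51 and 5.27. The immune markers summed to 762 to 843 with trametinib, 1418 to 1498 with panobinostat, 858 to 947 in the combination and 614 to 651 in vehicle, and CD68 gave nearly all of it, the group means of the pan-leukocyte gene PTPRC being at most 5.85. The epithelial markers summed to at most 53.2. The part of these lists in the results below was not tested. In bulk RNA, fewer cells of a type and less RNA per cell cannot be told apart.

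Of the 51 members, 34 had a mean value of at least 10 over the 8 libraries and were tested, 17 were not, and 2 of those, SLC6A11 and SLC6A14, were at 0 in every library. Single genes are named below where a group mean reached 20, which 35 members did. SLC1A1 was just inside this limit with a highest group mean of 20.3, and the member just outside it had 19.6. Values are read counts divided by the library's size factor, a change is a difference of log2(value + 1), and a gene passed at an adjusted p under 0.05 in limma's moderated test over all 13320 genes. The 3 treatments were set against the same vehicle libraries. The panobinostat and combination libraries were numbered apart from the trametinib and vehicle libraries in the series. A difference between these sets cannot be told apart from panobinostat in panobinostat against vehicle or the combination against trametinib. The combination against vehicle crosses the sets too.

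With trametinib, 11 members rose, 13 fell and 10 did not pass, so 70.6% of the tested members were called where 51.0% of all tested genes were (23.7% higher and 27.4% lower). The median log2 change was -0.17 over the members and -0.07 over all tested genes. Changes of 1 or more on the log2 scale were found in 3 members that rose and 10 that fell. Without either trametinib library more members were called, and so were more of all tested genes. Without either vehicle library fewer of both were called. With panobinostat, 6 members rose, 7 fell and 21 did not pass, 38.2% called against 30.5% of all tested genes (15.0% higher and 15.6% lower), with medians of -0.06 over the members and 0.00 over all. Fewer members rose and fewer fell without any 1 panobinostat or vehicle library, and the same held for all tested genes. In the combination, 10 members rose, 10 fell and 14 did not pass, 58.8% called against 50% of all tested genes (24.5% higher and 25.5% lower), with medians of 0.20 and 0.03. Fewer members rose in the combination without any 1 combination or vehicle library, and so did fewer of all tested genes. In all 3 comparisons the share of members called lay above that of all genes, and members moved in both directions. These counts describe the members and were not tested against other genes.

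**Figure D1:**
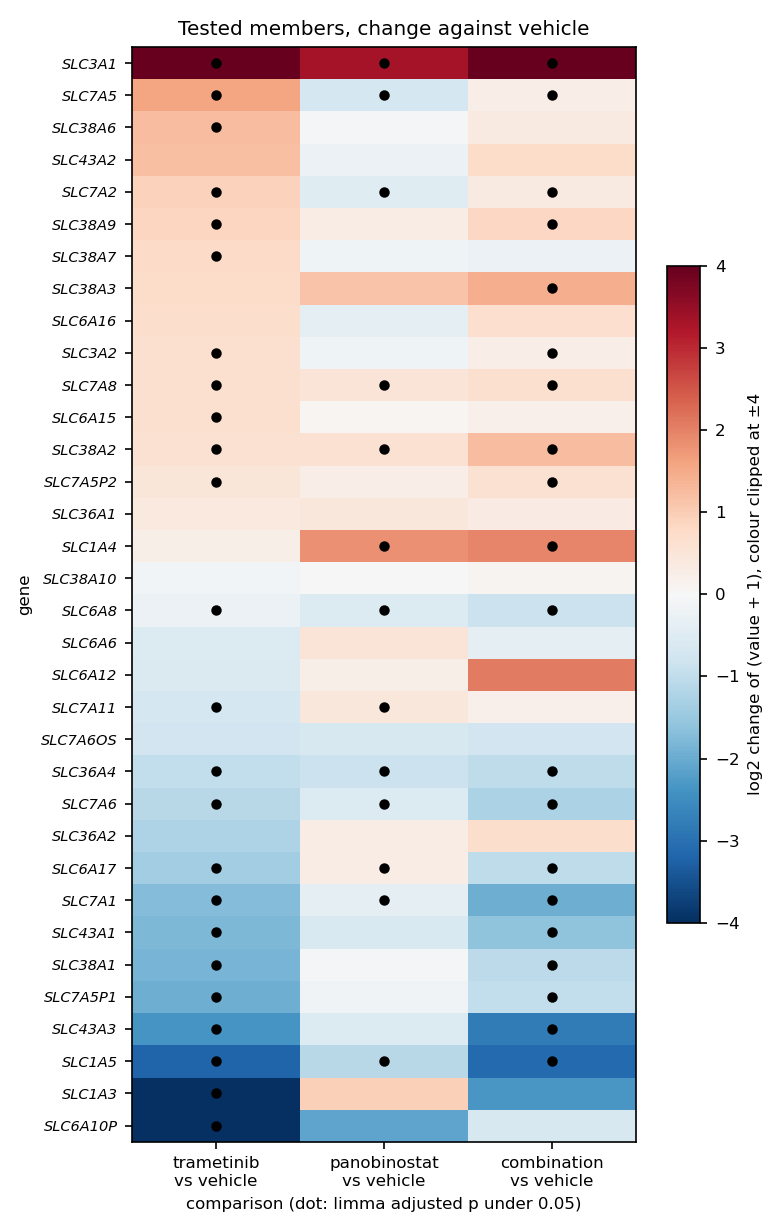
Log2 change of each of the 34 tested members (rows) with trametinib, panobinostat and the combination (columns), each against vehicle, as colour limited to -4 and 4 on the log2 scale. Dots mark an adjusted p under 0.05. The trametinib column has 24 dots, the panobinostat column 13 and the combination column 20, with red (higher) and blue (lower) cells in each. The trametinib colours of SLC1A3 and SLC6A10P, at 0 in both trametinib libraries, depend on the pseudocount.

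The members' summed value was higher with trametinib than in any other group. It was 59775 and 60938.5 with trametinib, 47301 and 47376 with panobinostat, 49703 and 49539 in the combination, and 45594 and 45766 in vehicle. That was 0.576% of all values in each trametinib library, 0.462% and 0.464% with panobinostat, 0.471% and 0.472% in the combination and 0.449% and 0.451% in vehicle. The order of the groups turned on SLC7A5 and SLC7A8, the carriers LAT1 and LAT2. Without them the sum was 21108 and 21294 with trametinib, 23433 and 23656 with panobinostat, 20266 and 20802 in the combination, and 25754 and 25683 in vehicle, where it was highest. SLC7A5 held 28.6% and 27.4% of the summed value with trametinib, 7.19% and 7.49% with panobinostat, 13.4% and 14.0% in the combination, and 12.5% and 12.2% in vehicle. SLC7A8 held 36.1% and 37.6% with trametinib, 43.3% and 42.6% with panobinostat, 45.8% and 44.0% in the combination, and 31.0% and 31.7% in vehicle. These shares are in the deposited unit, which is not per length. Per kilobase of exon, the order of the 35 members that are named here began in vehicle with SLC7A8 at 3046, SLC7A5 at 1229, SLC3A2 at 732, SLC6A8 at 726, SLC1A5 at 549.6 and SLC38A1 at 528, and ended with SLC3A1 at 0.535. With trametinib, SLC7A8 at 4733, SLC7A5 at 3685 and SLC3A2 at 1143 per kilobase were again at the top, while SLC38A1 stood at rank 12 with 145, SLC1A5 at rank 18 with 60.3 and SLC3A1 at rank 27 with 24.2.

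**Figure D2:**
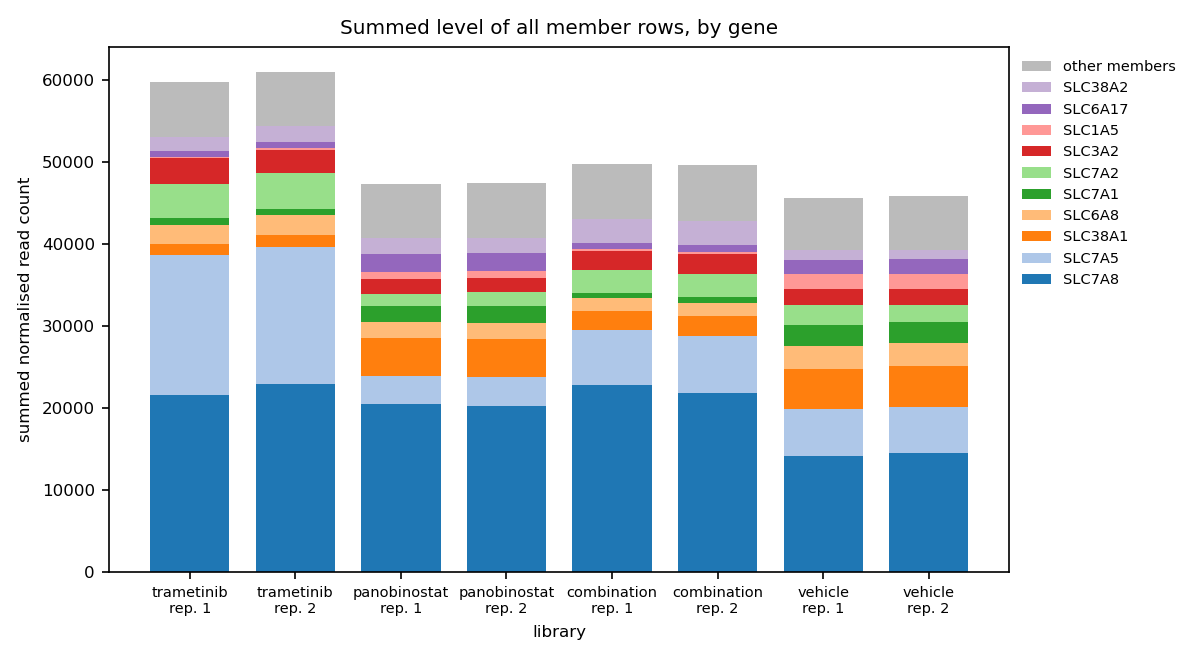
Summed value of the 51 member rows in each library (bars, normalised read counts), split by gene. The 2 trametinib bars, 59775 and 60938.5, are the tallest, and the SLC7A5 segment makes up 28.6% and 27.4% of them against 12.5% and 12.2% of the vehicle bars.

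Among the light chains of system L, which exchanges leucine and other large neutral amino acids, SLC7A5 moved in opposite directions with the 2 drugs. SLC7A5 had 17094 and 16709 normalised counts with trametinib, 3403 and 3549 with panobinostat, 6659 and 6926 in the combination, and 5706 and 5573 in vehicle. Both trametinib libraries lay above all others, both panobinostat libraries lay below all others, and no group overlapped vehicle. It was 3.00-fold higher with trametinib (log2 change 1.58 ± 0.0515 SE, adjusted p = 3.64e-08, limma) and 1.62-fold lower with panobinostat (-0.70, adjusted p = 2.40e-05, limma). In the combination it was 1.20-fold higher than in vehicle (0.27, adjusted p = 0.00191, limma), 2.49-fold lower than with trametinib alone (-1.32, adjusted p = 5.26e-07, limma) and 1.95-fold higher than with panobinostat alone (0.97, adjusted p = 2.34e-06, limma).

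SLC7A8, whose product exchanges both small and large neutral amino acids, had 21573 and 22935 with trametinib, 20465 and 20171 with panobinostat, 22778 and 21811 in the combination, and 14134 and 14509 in vehicle. All 6 treated libraries lay above both vehicle libraries. It rose by 0.64 ± 0.049 with trametinib (SE, adjusted p = 5.72e-06, limma), by 0.50 with panobinostat (adjusted p = 0.000107) and by 0.64 in the combination (adjusted p = 6.35e-06). The combination and trametinib did not differ beyond the spread between libraries, with a log2 difference of 0.00 and a 95% interval of -0.11 to 0.11.

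The heavy chain of both, SLC3A2 (CD98), had 3229 and 2838 with trametinib, 1754 and 1727 with panobinostat, 2306 and 2372 in the combination, and 1971 and 1914 in vehicle. It rose with trametinib (0.64 ± 0.0755 SE, adjusted p = 9.26e-05, limma) and in the combination (0.27, adjusted p = 0.0148, limma). The call in the combination ended without either combination library or either vehicle library, at log2 changes of 0.25 to 0.29. With panobinostat its change was -0.16, with a 95% interval of -0.33 to 0.01 and an adjusted p of 0.149. Without either trametinib library that same change passed, at adjusted p values of 0.0420 and 0.0411. The combination lay below trametinib (-0.37, adjusted p = 0.00503, limma) and above panobinostat (0.43, adjusted p = 0.00312, limma).

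SLC43A1 (LAT3), a uniporter of branched-chain amino acids, was low and fell with trametinib. It had 55.2 and 31.1 with trametinib, 82.6 and 114 with panobinostat, 50.3 and 44.1 in the combination, and 148 and 146 in vehicle. The vehicle libraries lay above all 6 treated ones. It fell by 1.80 on the log2 scale with trametinib (SE 0.371, adjusted p = 0.00289, limma) and by 1.62 in the combination (adjusted p = 0.00513, limma). SLC43A2 (LAT4) did not pass in any of the 6 comparisons. Its change with trametinib was 1.20, with a 95% interval of 0.14 to 2.27 and an adjusted p of 0.0575, and without trametinib replicate 1 it was 1.52 and passed (adjusted p = 0.00635, limma). Of the pseudogenes close in sequence to SLC7A5, SLC7A5P1 had 37.1 and 23.1 with trametinib, 116 and 94.8 with panobinostat, 60.9 and 56.3 in the combination, and 117 and 116 in vehicle. It fell by 1.95 on the log2 scale with trametinib (SE 0.354, adjusted p = 0.00140, limma) and by 0.98 in the combination (adjusted p = 0.0440, limma). The call in the combination ended without any 1 of the panobinostat, combination or vehicle libraries, at log2 changes of -1.03 to -0.92. SLC7A5P2 rose with trametinib (0.47, adjusted p = 0.0442, limma) and in the combination (0.59, adjusted p = 0.0171, limma). With trametinib that call ended without any 1 library other than trametinib replicate 1, at log2 changes of 0.37 to 0.58. In the combination it ended without either combination library or vehicle replicate 1, at 0.49 to 0.62. The counting may have split reads between SLC7A5 and these copies, and their values are uncertain.

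The promoter windows of SLC7A5 and SLC7A8, which held the largest shares of the summed value, are given from RefSeq (build GRCh38.p14), from 250 bases before to 20 bases after the annotated start, 5′ to 3′ on the gene's strand. Capitals mark the E-box CACGTG, the core that MITF, TFE3 and MYC proteins bind.
SLC7A5, chr16:87869488-87869757, minus strand: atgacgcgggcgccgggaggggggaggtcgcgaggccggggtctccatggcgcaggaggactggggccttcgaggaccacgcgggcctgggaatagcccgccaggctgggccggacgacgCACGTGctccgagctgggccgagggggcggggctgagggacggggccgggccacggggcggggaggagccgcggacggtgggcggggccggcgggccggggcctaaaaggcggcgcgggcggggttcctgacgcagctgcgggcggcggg
SLC7A8, chr14:23154374-23154643, minus strand: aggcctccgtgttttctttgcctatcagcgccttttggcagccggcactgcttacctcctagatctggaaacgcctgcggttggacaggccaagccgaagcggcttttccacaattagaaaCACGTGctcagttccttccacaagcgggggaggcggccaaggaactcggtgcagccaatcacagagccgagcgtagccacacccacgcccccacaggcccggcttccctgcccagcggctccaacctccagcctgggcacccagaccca
The E-box starts 130 bases before the annotated start in SLC7A5 and 129 bases before it in SLC7A8. The SLC7A8 window is 1 of 4 that RefSeq lists for the gene, and was picked since it holds the E-box. Of the 35 members named here, 24 had a promoter entry, with 43 windows, and CACGTG, which reads the same on both strands, was found in 7 of the 43 (16.3%) and in 7.26% of all 35116 windows of the same length. The other members with it were SLC1A5, SLC36A1, SLC38A7, SLC43A1 and SLC6A16. A match describes these letters and no binding was measured.

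**Figure D3:**
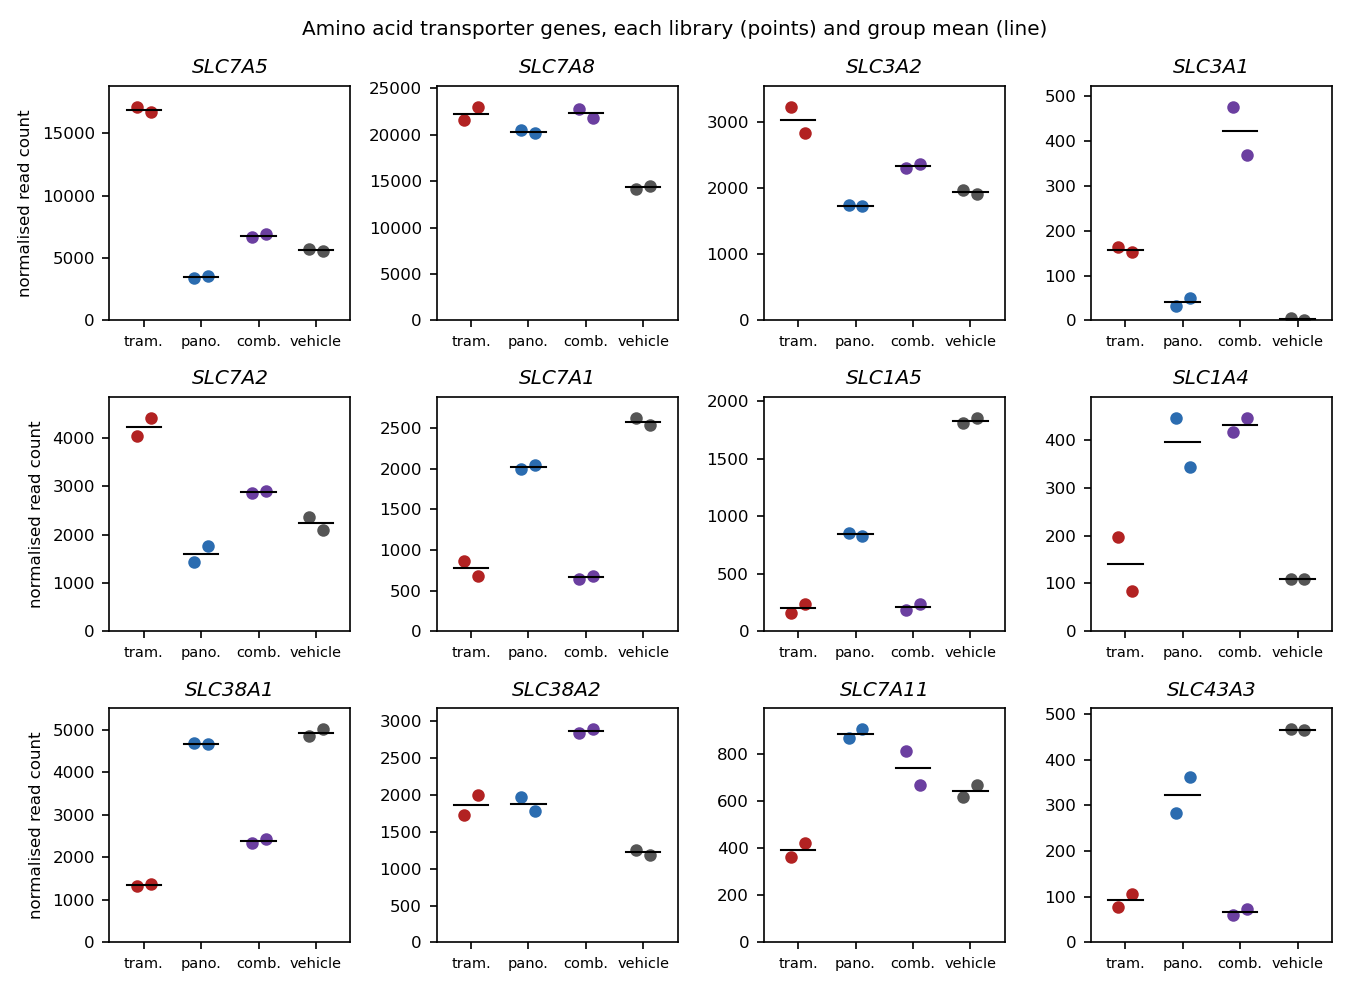
Normalised read counts of 12 members by group, with 1 point per library and a line at the mean of 2, on axes that start at 0. SLC7A5 is highest with trametinib and lowest with panobinostat, SLC1A5, SLC7A1 and SLC38A1 are low wherever trametinib was given, and SLC3A1 is highest in the combination.

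The carriers of arginine and lysine did not move together. SLC7A2 (CAT2) had 4032 and 4405 with trametinib, 1440 and 1763 with panobinostat, 2857 and 2910 in the combination, and 2372 and 2092 in vehicle. The groups kept the order seen for SLC7A5, with trametinib highest and panobinostat lowest. It rose by 0.92 ± 0.103 on the log2 scale with trametinib (SE, adjusted p = 6.52e-05, limma). It fell by 0.48 with panobinostat (adjusted p = 0.00677), a call that ended without panobinostat replicate 1 (-0.34) or vehicle replicate 1 (-0.39), and rose by 0.37 in the combination (adjusted p = 0.0135), a call that ended without either combination library or vehicle replicate 2 (0.28 to 0.39). The combination was lower than trametinib (-0.55, adjusted p = 0.00332, limma) and higher than panobinostat (0.86, adjusted p = 0.000317, limma).

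SLC7A1 (CAT1), the arginine carrier of most tissues, had 866 and 684 with trametinib, 1996 and 2051 with panobinostat, 645 and 682 in the combination, and 2620 and 2535 in vehicle. The 4 libraries with trametinib in the medium lay below the other 4. It was 3.33-fold lower with trametinib (-1.74 ± 0.109 SE, adjusted p = 1.53e-06, limma) and 3.89-fold lower in the combination (-1.96, adjusted p = 9.22e-07, limma). With panobinostat it was 1.27-fold lower (-0.35, adjusted p = 0.0372, limma), a call that ended without any 1 panobinostat, combination or vehicle library, at log2 changes of -0.37 to -0.33. The combination differed from trametinib by -0.21, with a 95% interval of -0.46 to 0.03 and an adjusted p of 0.159. Without trametinib replicate 2 that difference was -0.38 and passed (adjusted p = 0.00145, limma). SLC7A6, a light chain of system y+L that exports arginine for neutral amino acids, had 350.02 and 310.4 with trametinib, 513 and 459 with panobinostat, 315 and 272 in the combination, and 681 and 745 in vehicle. It fell by 1.11 on the log2 scale with trametinib (SE 0.139, adjusted p = 0.000139, limma) and by 1.28 in the combination (adjusted p = 5.61e-05, limma). The fall of 0.55 with panobinostat (adjusted p = 0.0149, limma) did not pass without any 1 panobinostat or vehicle library, at -0.63 to -0.47. SLC7A6OS did not pass in any of the 6 comparisons. Its change was -0.78 with trametinib (adjusted p = 0.152), which passed without either combination library (adjusted p = 0.0345 and 0.0428), and -0.75 in the combination (adjusted p = 0.171), which was -1.49 and passed without combination replicate 2 (adjusted p = 0.00988) and also passed without either trametinib library. It lies beside SLC7A6, and since no source used here says whether counting used strand, reads where they overlap cannot be told apart.

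SLC3A1, the heavy chain that the kidney and gut use for cystine and dibasic amino acids, was near 0 in vehicle and higher in every treated group. It had 163 and 153 with trametinib, 31.6 and 50.4 with panobinostat, 475 and 370 in the combination, and 5.42 and 1.58 in vehicle, which came from 9 and 2 reads. The groups did not overlap, and the combination was highest. Group means were 45.2-fold higher with trametinib (log2 change 5.29 ± 0.49 SE, adjusted p = 1.90e-05, limma), 11.7-fold higher with panobinostat (3.33, adjusted p = 0.00103, limma) and 121-fold higher in the combination (6.69, adjusted p = 4.72e-06, limma). The combination was 10.3-fold higher than panobinostat (3.36, adjusted p = 0.00103, limma). It was 2.67-fold higher than trametinib (1.40, 95% interval 0.30 to 2.50), which missed the threshold (adjusted p = 0.0537, limma) but passed in edgeR (adjusted p = 0.00649) and without either trametinib library or either vehicle library (adjusted p = 0.0166 to 0.0312). The gene of the light chain it pairs with in kidney had no group mean of 20.

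SLC7A11, the light chain of the cystine and glutamate exchanger, had 363 and 421 with trametinib, 865 and 902 with panobinostat, 809 and 666 in the combination, and 614 and 665 in vehicle. Trametinib libraries lay below all others. It fell by 0.71 on the log2 scale with trametinib (SE 0.128, adjusted p = 0.00140, limma). It rose by 0.47 with panobinostat (adjusted p = 0.0221, limma), a call that ended without any 1 panobinostat or vehicle library (0.41 to 0.52). In the combination the change from vehicle was 0.20, with a 95% interval of -0.09 to 0.49 and an adjusted p of 0.227, and the combination was 1.88-fold higher than trametinib (0.91, adjusted p = 0.000692, limma).

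Promoter windows of SLC7A1 and of the glutamine carrier SLC38A1 are given for the same stretch and build, and were picked since they hold the elements marked. Both genes were over 3-fold lower with trametinib, but so were other members, such as SLC1A5 (9.12-fold) and SLC43A3 (5.06-fold). Capitals mark TGATGNAA, the composite element that ATF4 binds with a partner protein, and, in SLC38A1 only, also the AP-1 element TGACTCA.
SLC7A1, chr13:29595669-29595938, minus strand: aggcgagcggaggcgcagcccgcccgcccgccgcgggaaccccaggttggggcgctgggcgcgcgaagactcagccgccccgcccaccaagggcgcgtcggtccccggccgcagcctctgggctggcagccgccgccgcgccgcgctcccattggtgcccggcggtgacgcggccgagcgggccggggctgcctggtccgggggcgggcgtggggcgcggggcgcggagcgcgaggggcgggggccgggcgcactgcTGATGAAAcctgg
SLC38A1, chr12:46266497-46266766, minus strand: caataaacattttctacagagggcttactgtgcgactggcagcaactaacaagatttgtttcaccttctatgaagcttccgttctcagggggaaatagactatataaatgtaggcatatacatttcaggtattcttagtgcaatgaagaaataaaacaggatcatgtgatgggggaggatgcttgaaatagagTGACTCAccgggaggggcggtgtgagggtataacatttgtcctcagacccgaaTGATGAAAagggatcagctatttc
The composite element starts 7 bases after the annotated start in SLC7A1 and 4 bases before it in SLC38A1, whose window is 1 of 2. On either strand, TGATGNAA was in 6 of the members' 43 windows (14.0%) and in 3.62% of all windows, and the other members with it were SLC1A3, SLC1A4, SLC1A5 and SLC3A2. TGACTCA was in 7 of 43 (16.3%) and in 4.95% of all. It was also found for SLC1A3, SLC36A4, SLC38A9, SLC3A2, SLC43A2 and SLC6A17. These members moved in different directions, and the shares are descriptions.

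SLC1A5 (ASCT2), which exchanges glutamine and other neutral amino acids with sodium, fell with every treatment. It had 162 and 239 with trametinib, 853 and 831 with panobinostat, 189.7 and 234 in the combination, and 1812 and 1851 in vehicle. The 4 libraries with trametinib were lowest, both panobinostat libraries lay between, and vehicle was highest. SLC1A5 was 9.12-fold lower with trametinib (-3.21 ± 0.181 SE, adjusted p = 8.09e-07, limma), 2.17-fold lower with panobinostat (-1.12, adjusted p = 0.00168, limma) and 8.64-fold lower in the combination (-3.11, adjusted p = 1.20e-06, limma). Between the combination and trametinib the difference was 0.10, with a 95% interval of -0.31 to 0.50 and an adjusted p of 0.712. It was 0.37 and passed without trametinib replicate 2 (adjusted p = 0.0295, limma), and -0.18 without trametinib replicate 1.

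Its close relative SLC1A4 (ASCT1), which carries alanine, serine and cysteine, moved the other way. It had 198 and 83.4 with trametinib, 444 and 344 with panobinostat, 417 and 444 in the combination, and 108 and 110.05 in vehicle. All 4 libraries with panobinostat lay above the other 4, and the trametinib libraries lay on either side of vehicle. It was 3.61-fold higher with panobinostat (1.83, adjusted p = 0.00351, limma) and 3.94-fold higher in the combination (1.97, adjusted p = 0.00104, limma). The change with trametinib was 0.23, with a 95% interval of -0.53 to 1.00, and it was 0.85 and passed without trametinib replicate 2 (adjusted p = 0.00065, limma). The combination was 3.06-fold higher than trametinib (1.74, adjusted p = 0.00425, limma), and 1.12 higher on the log2 scale without trametinib replicate 2.

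Of the glutamate and aspartate carriers, SLC1A3 (EAAT1) was at 0 in both trametinib libraries and had 43.8 and 25.2 with panobinostat, 1.17 and 4.56 in the combination, and 19.3 and 14.3 in vehicle. Taking 3 reads per library as the floor, it was at least 5.56-fold lower with trametinib than in vehicle. This bound covers counting error only, and trametinib replicates could differ by more, as in SLC6A12 with 48 and 0 reads. The fall passed (adjusted p = 0.0101, limma). That call ended without vehicle replicate 1 (adjusted p = 0.109) or vehicle replicate 2 (adjusted p = 0.0778). SLC1A1 (EAAT3) was not tested. It had 4.01 and 0 with trametinib, 22.4 and 18.1 with panobinostat, 9.37 and 15.2 in the combination, and 4.21 and 4.75 in vehicle.

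Among the sodium-coupled glutamine carriers of the plasma membrane, SLC38A1 (SNAT1) and SLC38A2 (SNAT2) moved in opposite directions with trametinib and in the combination. SLC38A1 had 1331 and 1377 with trametinib, 4674 and 4654 with panobinostat, 2343 and 2428 in the combination, and 4837 and 5006 in vehicle. Panobinostat libraries lay just under vehicle, trametinib libraries were lowest, and the combination lay between. It was 3.63-fold lower with trametinib (-1.86 ± 0.0593 SE, adjusted p = 3.34e-08, limma) and 2.06-fold lower in the combination (-1.04, adjusted p = 1.03e-06, limma). With panobinostat the change was -0.08, with a 95% interval of -0.21 to 0.06 and an adjusted p of 0.371. The combination was 1.76-fold higher than trametinib (0.82, adjusted p = 1.51e-05, limma).

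SLC38A2 had 1729 and 1997 with trametinib, 1973 and 1788 with panobinostat, 2833 and 2889 in the combination, and 1251 and 1188 in vehicle. Both single drugs lay above vehicle at like values, and the combination lay above all. It rose by 0.61 ± 0.088 with trametinib (SE, adjusted p = 0.000348, limma), by 0.62 with panobinostat (adjusted p = 0.000838) and by 1.23 in the combination (adjusted p = 4.15e-06). The combination was 1.54-fold higher than trametinib (0.62, adjusted p = 0.00069, limma) and 1.52-fold higher than panobinostat (0.61, adjusted p = 0.00100, limma). SLC38A3 (SNAT3), a glutamine and histidine carrier of system N, had 92.3 and 68.3 with trametinib, 142 and 79.7 with panobinostat, 104 and 164 in the combination, and 40.3 and 55.4 in vehicle. It passed in the combination (2.80-fold higher, log2 change 1.45 ± 0.395 SE, adjusted p = 0.0126, limma), but not without combination replicate 2 (1.12, adjusted p = 0.113) or vehicle replicate 1 (1.22, adjusted p = 0.0956).

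The other 3 SLC38 members that rose with trametinib were SLC38A6, SLC38A7 and SLC38A9. SLC38A6 had 478 and 551 with trametinib, 206 and 214 with panobinostat, 270.4 and 288 in the combination, and 221 and 213 in vehicle. Its rise with trametinib was 2.37-fold (1.24 ± 0.152 SE, adjusted p = 0.00012, limma), and the combination was 1.84-fold lower than trametinib (-0.88, adjusted p = 0.00211, limma). SLC38A7 (SNAT7), which exports glutamine from the lysosome, had 869.5 and 907 with trametinib, 492 and 447 with panobinostat, 452 and 438 in the combination, and 528 and 518 in vehicle. The rise of SLC38A7 with trametinib was 1.70-fold (0.76 ± 0.107 SE, adjusted p = 0.000288, limma), and the combination was 2.00-fold lower than trametinib (-0.996, adjusted p = 0.00015, limma). For SLC38A9, the lysosomal arginine sensor, the changes were 0.85 with trametinib (adjusted p = 0.00486, limma) and 0.84 in the combination (adjusted p = 0.00522, limma), and both calls ended without vehicle replicate 1 (0.77 and 0.75, adjusted p = 0.0524 and 0.0547). SLC38A10 did not pass in any of the 6 comparisons.

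In the SLC6 family, whose members use sodium and chloride, SLC6A17 is a carrier of neutral amino acids on synaptic vesicles. It had 627 and 704 with trametinib, 2195 and 2145 with panobinostat, 804 and 940.2 in the combination, and 1746 and 1762 in vehicle. The 4 libraries with trametinib lay below vehicle and the panobinostat libraries above it. It was 2.64-fold lower with trametinib (-1.40 ± 0.0981 SE, adjusted p = 3.11e-06, limma) and 2.01-fold lower in the combination (-1.01, adjusted p = 2.71e-05, limma). The rise with panobinostat (0.31, adjusted p = 0.0409, limma) did not pass without any 1 panobinostat or vehicle library (0.29 to 0.32). The combination lay 1.31-fold above trametinib (0.39, adjusted p = 0.0146, limma), a call that ended without combination replicate 2 (0.28, adjusted p = 0.115).

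SLC6A15, a carrier of branched-chain amino acids and proline, rose by 0.63 ± 0.121 with trametinib (SE, adjusted p = 0.00187, limma). The combination was lower than trametinib (-0.43, adjusted p = 0.0238, limma), but not without combination replicate 1 (-0.32, adjusted p = 0.169). SLC6A8, the creatine carrier, fell by 0.23 with trametinib (adjusted p = 0.0142, limma), by 0.54 with panobinostat (adjusted p = 0.000348) and by 0.85 in the combination (adjusted p = 6.52e-06), where it was 1.80-fold lower than in vehicle. With trametinib that call ended without vehicle replicate 1 (-0.24, adjusted p = 0.0758) or vehicle replicate 2 (-0.23, adjusted p = 0.0928). SLC6A8 had 2328 and 2480.5 with trametinib, 1921 and 1957 with panobinostat, 1550.01 and 1591 in the combination, and 2812 and 2843 in vehicle, and no groups overlapped. Its pseudogene SLC6A10P, a near copy whose reads may have been split with it, was at 0 in both trametinib libraries and had 2.04 and 7.06 with panobinostat, 7.02 and 22.8 in the combination, and 29.5 and 14.3 in vehicle. At a floor of 3 reads per library, which covers counting error only, it was at least 7.26-fold lower with trametinib (adjusted p = 0.0115, limma). That call ended without either vehicle library.

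SLC6A12, SLC36A2 and SLC6A6 differed strongly between the trametinib libraries and did not pass. SLC6A12, which carries betaine and GABA, had 48.1 and 0 with trametinib, 14.3 and 9.07 with panobinostat, 52.7 and 36.5 in the combination, and 11.4 and 7.92 in vehicle. Its log2 change with trametinib was -0.59 ± 1.49 (SE, adjusted p = 0.764, limma), but 2.22 without trametinib replicate 2 and -3.40 without trametinib replicate 1, each of which passed. SLC36A2, a proton-coupled carrier of glycine and proline, had 46.1 and 1.00 with trametinib, 36.7 and 20.2 with panobinostat, 46.8 and 28.9 in the combination, and 19.3 and 25.3 in vehicle. For SLC36A2 the change was -1.25 ± 1.22 (SE, adjusted p = 0.417, limma), -3.53 without trametinib replicate 1, which passed, and 1.03 without trametinib replicate 2, which did not. SLC6A6, the taurine carrier, had 188 and 56.3 with trametinib, 196 and 240.0 with panobinostat, 83.1 and 159.7 in the combination, and 158 and 146 in vehicle. Its change was -0.55 ± 0.505 (SE, adjusted p = 0.383, limma), -1.41 without trametinib replicate 1, which passed, and 0.31 without trametinib replicate 2, which did not.

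Of the other members, SLC36A4, a carrier of proline and tryptophan, had 146 and 186 with trametinib, 189 and 168 with panobinostat, 179 and 145 in the combination, and 318 and 334 in vehicle. All treated libraries lay below both vehicle libraries. It fell by 0.98 on the log2 scale with trametinib (SE 0.207, adjusted p = 0.00342, limma), by 0.87 with panobinostat (adjusted p = 0.0120) and by 1.01 in the combination (adjusted p = 0.00275). The call with panobinostat ended without any 1 panobinostat or vehicle library (-0.95 to -0.79). SLC43A3, which carries purine nucleobases and not amino acids, had 77.2 and 106 with trametinib, 282 and 362 with panobinostat, 60.9 and 73.0 in the combination, and 466 and 464 in vehicle. SLC43A3 was 5.06-fold lower with trametinib (-2.35 ± 0.238 SE, adjusted p = 3.42e-05, limma) and 6.95-fold lower in the combination (-2.78, adjusted p = 1.23e-05, limma). Between the combination and trametinib the difference was -0.44, with a 95% interval of -0.97 to 0.10 and an adjusted p of 0.185, and it was -0.67 and passed without trametinib replicate 1 (adjusted p = 0.0127). SLC36A1, a proton-coupled exporter of the lysosome, did not pass in any of the 6 comparisons. It had 687 and 482 with trametinib, 628 and 577 with panobinostat, 519.8 and 579.6 in the combination, and 429 and 447 in vehicle, so all treated libraries lay above vehicle. The log2 changes were 0.39 with trametinib (adjusted p = 0.0704, limma), 0.46 with panobinostat (adjusted p = 0.0609) and 0.33 with both (adjusted p = 0.128). With trametinib it was 0.65 and passed without trametinib replicate 2 (adjusted p = 0.000199), and the other changes passed without either trametinib library (adjusted p = 0.00106 to 0.00134 with panobinostat and 0.00925 to 0.0107 in the combination).

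Set against trametinib alone, the combination had 6 members higher, 7 lower and 21 not passing, 38.2% called against 32.8% of all tested genes (17.6% higher and 15.2% lower). The median log2 difference was 0.06 over the members, also with members at 0 taken at their bound, and 0.06 over all tested genes. Higher were SLC7A11, SLC1A4, SLC38A1, SLC38A2, SLC6A17 and SLC6A10P. SLC6A10P was at least 4.96-fold higher than the floor of the trametinib libraries, a bound that covers counting error only. It passed (adjusted p = 0.0353, limma), but not without any 1 panobinostat, combination or vehicle library. Lower were SLC7A5, SLC3A2, SLC7A2, SLC38A6, SLC38A7, SLC6A15 and SLC6A8. Without trametinib replicate 1 more members passed in both directions, and so did more of all tested genes. Set against panobinostat alone, the combination had 6 members higher, 7 lower and 21 not passing, 38.2% called against 24.0% of all tested genes (10.9% higher and 13.1% lower), with medians of 0.12 and 0.01. Without either trametinib library more members passed in both directions, as did more of all tested genes. The 7 that were lower included SLC1A5 (-1.99, adjusted p = 5.48e-05, limma), SLC7A1 (-1.61, adjusted p = 9.90e-06, limma), SLC38A1 (-0.97, adjusted p = 5.79e-06, limma) and SLC43A3 (-2.24, adjusted p = 0.000144, limma). The other 3 were SLC7A6 (-0.73, adjusted p = 0.00470, limma), which did not pass without panobinostat replicate 1 (-0.65), SLC6A17 (-1.32, adjusted p = 1.77e-05, limma) and SLC6A8 (-0.30, adjusted p = 0.00856, limma), which did not pass without either panobinostat library or combination replicate 1 (-0.32 to -0.28). The 6 that were higher were SLC7A5, SLC3A2, SLC7A2, SLC3A1, SLC38A2 and SLC6A16, and for SLC6A16, whose role is not settled, the difference of 1.03 ± 0.302 (SE, adjusted p = 0.0351, limma) did not pass without any 1 panobinostat, combination or vehicle library (0.87 to 1.19).

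The effect of panobinostat was compared with and without trametinib by the interaction, the log2 change of the combination from trametinib minus that of panobinostat from vehicle. It passed in 7 members, 3 higher and 4 lower, and not in 27, 20.6% called against 19.3% of all tested genes (10.2% higher and 9.04% lower). The members' share was thus close to that of all genes. SLC38A1 changed by 0.82 with panobinostat on top of trametinib and by -0.08 without it (interaction 0.89 ± 0.0838 SE, adjusted p = 0.000136, limma). SLC7A5 fell by 1.32 on top of trametinib and by 0.70 without it (interaction -0.62 ± 0.0729 SE, adjusted p = 0.000459, limma). SLC7A8 changed by 0.00 on top of trametinib and rose by 0.50 without it (interaction -0.50 ± 0.0693 SE, adjusted p = 0.00113, limma). For SLC38A7 the interaction was -0.84 ± 0.152 (SE, adjusted p = 0.00468, limma).

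SLC1A5 changed by 0.10 on top of trametinib and fell by 1.12 without it (interaction 1.22 ± 0.256 SE, adjusted p = 0.00989, limma), which did not pass without panobinostat replicate 2, combination replicate 2 or either vehicle library (1.06 to 1.23, adjusted p = 0.0502 to 0.0585). For SLC38A6 the interaction of -0.83 ± 0.215 (SE, adjusted p = 0.0251, limma) did not pass without any 1 panobinostat, combination or vehicle library (adjusted p = 0.0638 to 0.112). That of SLC6A10P, 5.91 ± 1.67 (SE, adjusted p = 0.0358, limma), rests on libraries at 0, depends on the pseudocount and did not pass without any 1 panobinostat, combination or vehicle library (5.13 to 6.70). Without either trametinib library the interaction passed in more members, and also in more of all tested genes. For SLC38A2 the interaction was 0.00, with a 95% interval of -0.28 to 0.28, so that its rises with the 2 drugs added up on the log2 scale within that error.

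**Figure D4:**
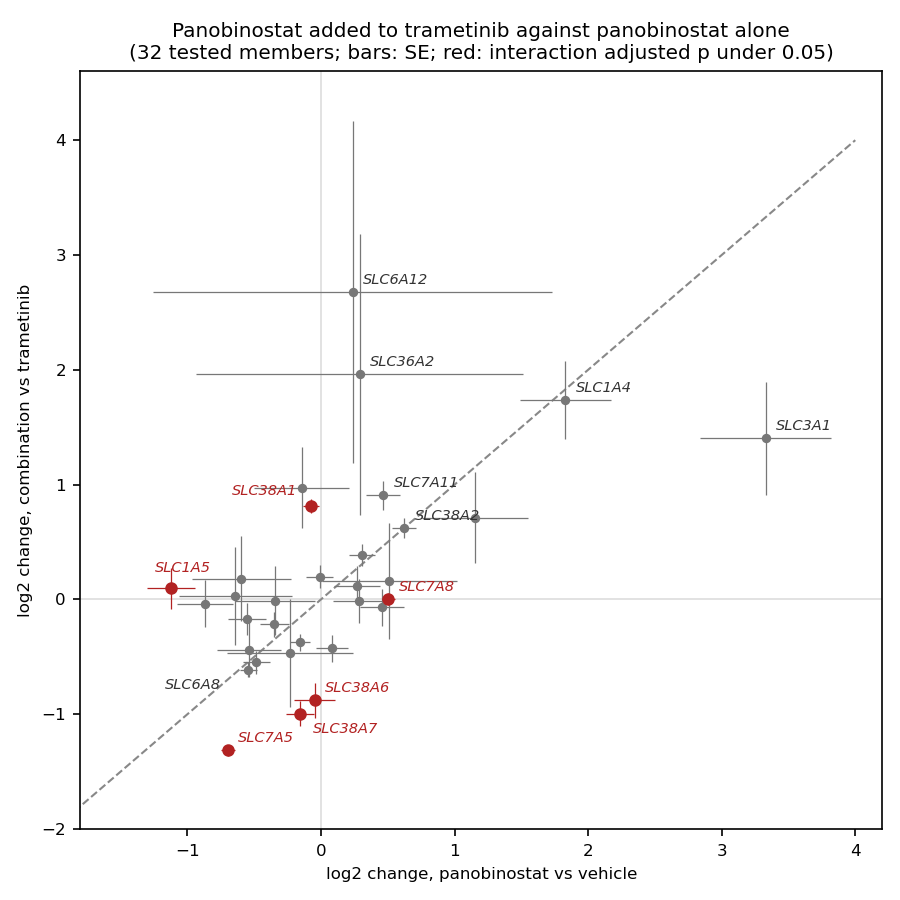
Log2 change with panobinostat alone against vehicle (x axis) and of the combination against trametinib (y axis) for 32 tested members, leaving out SLC1A3 and SLC6A10P, which were at 0 in both trametinib libraries. Bars are standard errors, the dashed line marks equal change, and red points are the 6 members shown whose interaction passed, with SLC38A1 and SLC1A5 above the line and SLC7A5, SLC7A8, SLC38A6 and SLC38A7 below it.

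Other genes of amino acid supply were taken from 5 lists and read against the shares of all genes called above. Of 19 tested genes of the ATF4 amino acid response, 5 rose and 6 fell with trametinib, 2 rose and 4 fell with panobinostat, and 5 rose and 9 fell in the combination. ATF4 itself had 3656 and 3839 with trametinib, 3241 and 3112 with panobinostat, 2118 and 2127 in the combination, and 3913 and 3898 in vehicle. Its mRNA fell by 0.30 with panobinostat (SE 0.0587, adjusted p = 0.00465, limma) and by 0.88 in the combination (adjusted p = 2.70e-06), with a change of -0.06 with trametinib (adjusted p = 0.415) and an interaction of -0.52 (adjusted p = 0.00239). DDIT4, an inhibitor of mTORC1, rose by 2.24 with trametinib, by 2.38 with panobinostat and by 4.33 with both (SE 0.167, with adjusted p values of 4.59e-06, 2.02e-05 and 1.41e-07 in the same order, limma).

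Of 10 tested genes of serine, glycine, proline and asparagine synthesis, 3 rose and 5 fell with trametinib, 4 fell with panobinostat, and 6 fell in the combination. MTHFD2, a mitochondrial enzyme of folate metabolism, had 81.2 and 138 with trametinib, 267 and 277 with panobinostat, 108 and 120.2 in the combination, and 643 and 704 in vehicle. It fell by 2.66 on the log2 scale with trametinib (SE 0.245, adjusted p = 1.84e-05, limma), fell by 1.30 with panobinostat (adjusted p = 0.00368) and fell by 2.55 in the combination (adjusted p = 2.50e-05). ALDH18A1, which starts proline synthesis, fell by 2.11 with trametinib (SE 0.139, adjusted p = 2.13e-06, limma).

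Of 29 tested genes of amino acid sensing by mTORC1, 12 rose and 6 fell with trametinib, 6 rose and 4 fell with panobinostat, and 11 rose and 7 fell in the combination. SESN3, which restrains mTORC1, had 768 and 877 with trametinib, 824 and 801 with panobinostat, 2107 and 2163 in the combination, and 247 and 246 in vehicle. It rose by 1.73 on the log2 scale with trametinib (SE 0.0987, adjusted p = 8.70e-07, limma), by 1.71 with panobinostat (adjusted p = 8.82e-06) and by 3.11 with both (adjusted p = 5.78e-08). MITF, the melanocyte transcription factor, had 8362 and 8592 with trametinib, 5343 and 5099 with panobinostat, 4184 and 4336 in the combination, and 4158 and 4070.1 in vehicle. MITF rose by 1.04 with trametinib (SE 0.0539, adjusted p = 4.74e-07, limma) and by 0.34 with panobinostat (adjusted p = 0.00144), changed by 0.05 in the combination (adjusted p = 0.472) and had an interaction of -1.34 (adjusted p = 1.05e-05).

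Of 14 tested genes of glutamine and glutathione use, 2 rose and 8 fell with trametinib, 2 rose and 2 fell with panobinostat, and 3 rose and 7 fell in the combination. GCLM, a subunit of the enzyme that starts glutathione synthesis, fell by 2.27 with trametinib (SE 0.239, adjusted p = 4.39e-05, limma). GPX4, the glutathione peroxidase that protects lipids, fell by 1.40 with trametinib (SE 0.096, adjusted p = 2.68e-06, limma) and by 1.18 with panobinostat (adjusted p = 3.86e-05). GPX4 had 583 and 599 with trametinib, 645 and 737 with panobinostat, 823 and 811 in the combination, and 1537 and 1588 in vehicle. The combination thus lay below vehicle but above both single drugs. Of 18 tested amino acid carriers of other families, 6 rose and 6 fell with trametinib, 3 rose and 3 fell with panobinostat, and 4 rose and 8 fell in the combination. SLC17A7, the vesicular glutamate carrier of neurons, had 45.1 and 28.1 with trametinib, 169 and 201 with panobinostat, 281 and 301 in the combination, and 6.02 and 1.58 in vehicle. It rose by 3.11 with trametinib (SE 0.514, adjusted p = 0.000795, limma). The rise was 5.44 with panobinostat (adjusted p = 9.22e-05, limma) and 6.10 in the combination (adjusted p = 1.14e-05, limma).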

How the data were processed

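RNA was measured in 8 libraries, 2 for each of 4 groups, whose total RNA was prepared with a NuGEN Ovation kit for FFPE RNA, per the labels' protocols. The authors deposited 1 normalised signal value per gene and library. Per the submitters' processing notes, TopHat2 2.0.13, Cufflinks 2.2.1 and DESeq2 were used, and build hs37d5 is named for the trametinib and vehicle libraries and not for the other 4. These sets are also numbered apart in the series, and every library with panobinostat is in the second set. The sources used here do not give the annotation, the DESeq2 version or the use of strand. Within a library the deposited signal values were whole multiples of 1 step. Dividing by it gave whole reads for 100% of values above 0, within a tolerance of 1e-06, so the values are read counts divided by a size factor. Of 18406 genes, 458 were at 0 in all libraries.

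Genes with a mean of at least 10 (13320) entered limma 3.58.1 in R 4.3.3, with a trend of variance on the mean of log2(value + 1) and 1 fit of all 8 libraries with 4 residual and 5.32 prior degrees of freedom. Benjamini-Hochberg adjustment ran over all 13320 genes, and a gene passed under 0.05. All groups shared 1 error per gene, although the trametinib replicates differed more from each other than those of the other groups. With only the groups compared, fewer of all tested genes were called with trametinib and more with panobinostat. Each treatment was set against vehicle and the combination against either drug alone, and the interaction was tested. A fold on the log2(value + 1) scale understates changes of low genes, and other folds are ratios of group means. With 2 libraries against 2, the smallest two-sided p of an exact permutation test is 0.333. No source says that replicates were separate cultures, so the p-values rest on the spread between libraries alone, and that spread may be technical. Floors are 3 reads per library and cover counting error only, since without molecular identifiers several reads can stem from the same molecule.

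The members, the lists of other genes and the tests were chosen with earlier results of these data known. Members with a group mean of 20 could be named, and values by library were set for those that passed against vehicle with a log2 change of 1 or more and for SLC3A2, SLC7A5, SLC7A11, SLC1A5 and SLC38A2. SLC7A8, SLC7A2, SLC38A7, SLC6A8, SLC6A12, SLC36A1, SLC36A2, SLC6A6 and SLC1A1 were added after their values were seen. Of each list of other genes, up to 4 with the smallest adjusted p per comparison could be named, and ATF4 and MITF. Deviations of replicate 1 from its group mean correlated between groups at -0.0235 to 0.0218, so replicate numbers were not treated as pairs, and no block was used. The alternatives were pseudocounts of 0.5 and 5, no filter, a mean of at least 50, TMM factors, edgeR 4.0.16 and DESeq2 1.42.0 on the recovered read counts, a replicate block, leaving out each library, and fits of only the groups compared. The limma procedure was tested on simulated data. Exon lengths are from GENCODE release 29, and promoter sequences from RefSeq, build GRCh38.p14. No other coordinates are given.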

Additional observations from a re-analysis of the deposited data

Results flagged for a closer look

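In 7 members the effect of panobinostat differed with and without trametinib by the interaction test (limma, adjusted over all 13320 tested genes). The interaction was 1.22 for SLC1A5, 0.89 for SLC38A1, 5.91 for SLC6A10P, -0.62 for SLC7A5, -0.50 for SLC7A8, -0.83 for SLC38A6 and -0.84 for SLC38A7, all on the log2 scale. The calls of SLC38A6 and SLC6A10P ended without any 1 panobinostat, combination or vehicle library. That of SLC1A5 ended without panobinostat replicate 2, combination replicate 2 or either vehicle library. The value of SLC6A10P rests on trametinib libraries at 0 and depends on the pseudocount. Among all tested genes 19.3% had such a call, and among the members 20.6%. With 2 libraries per group, no group was large enough to be searched for a library far from the rest.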

How the results depend on the processing

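Under the alternatives other than leaving out a library, the numbers of members called stayed within 1.5 times those reported, except with only the groups compared. There 12 members were lower with panobinostat than in vehicle, where 3768 of all tested genes were, against 2075 in the main fit. In the combination 12 were lower than with panobinostat, where 2741 of all tested genes were, against 1740 in the main fit. Each of these held all 7 reported members. With the replicate block, which the numbers do not warrant, 10 members rose and 13 fell with trametinib, 6 rose and 7 fell with panobinostat, 10 rose and 10 fell with both drugs, and 2 were higher and 4 lower in the interaction. Leaving out 1 library at a time gave 3 to 10 members lower with panobinostat, 6 to 14 higher in the combination, 4 to 12 higher in the combination than with trametinib, 5 to 11 higher and 5 to 12 lower in the combination than with panobinostat, and 1 to 10 higher and 3 to 10 lower in the interaction. Over the named genes and these alternatives, 2114 values kept their direction and their side of the threshold, 103 lost the call, 40 gained it and 20 changed sign. The sign changes were in differences that had not passed. SLC36A2 with trametinib was 0.10 in edgeR and 0.083 in DESeq2, and SLC6A12 was 0.16 with a pseudocount of 5, 1.32 in edgeR and 1.31 in DESeq2. SLC7A8 in the combination against trametinib was -0.0246 with TMM factors, -0.0237 in edgeR and -0.0067 in DESeq2. Leaving out 1 library gave ranges with trametinib of -0.38 to 0.85 for SLC1A4, -3.53 to 1.03 for SLC36A2, -3.40 to 2.22 for SLC6A12 and -1.41 to 0.31 for SLC6A6. In the combination against trametinib they were -0.18 to 0.37 for SLC1A5 and -0.0412 to 0.0471 for SLC7A8, and the interaction of SLC38A2 ran from -0.10 to 0.10. The cause was not tested. The scaling alternatives moved the median of all tested genes by less than 0.1 on the log2 scale. Values under the floor of 3 reads per library are limited by depth. SLC1A3 and SLC6A10P, at 0 in both trametinib libraries, had reads in both combination libraries, which were shallower. Those held 9017593 and 6897784 reads, against 10342369 and 10528784 with trametinib. Why these members were at 0 was not tested.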
